A study of Mus musculus with 24 samples.

Results

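Chemokines are small secreted proteins that guide leukocytes along gradients through G protein-coupled receptors, and this account describes the mouse genes for CC and CXC chemokines and for their receptors in retina and pineal gland after conditional loss of NeuroD1. The members are the genes whose single symbol on the array's annotation begins with Ccl, Cxcl, Ccr or Cxcr followed by a digit, each represented by its brightest probe set on average over the 24 arrays. The rule gave 46 of the 18193 genes measured: 18 CC ligands, 13 CXC ligands, 10 CC receptors and 5 CXC receptors. The CC and CXC classes differ in the spacing of their first cysteines. In nervous tissue, microglia, astrocytes and Mueller glia are known sources of inflammatory chemokines, and the transcription factors NF-kappaB, the STAT proteins and the interferon regulatory factors are known inducers of many of them, whereas Cxcl12 and Cxcl14 are also made in the absence of inflammation.

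The mice were C57BL/6J of both sexes, aged 2 months and kept in a 12 h light, 12 h dark cycle. Conditional knockout (cKO) mice carried 2 floxed NeuroD1 alleles and the Crx-Cre transgene (NeuroD1 flox/flox::Crx-Cre+/-), so that deletion rests on the Crx promoter, which is active in photoreceptors and pinealocytes. Controls carried the same 2 floxed alleles without Cre (NeuroD1 flox/flox::Crx-Cre-/-). Retinas and pineal glands were taken at night, 20 h after lights on (ZT20, under dim red light), and by day, 6 h after lights on (ZT6). Tissue, genotype and time gave 8 groups of 3 pools, each pool holding 6 retinas or 6 pineal glands, and each pool was hybridised to 1 Affymetrix Mouse 430 2.0 array. Values below are signals after quantile normalisation of the 24 arrays, and differences are log2 differences of signal plus 16, which understates the change of dim genes. The p-values are Benjamini-Hochberg adjusted values from limma's moderated test over all genes tested, with 0.05 as the threshold, and n is 3 pools per group. Errors on differences are standard errors (SE).

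The targeted gene separated the pools less cleanly at night than by day. At ZT6, Neurod1 stood at 3.97% to 9.78% of the control mean in cKO retinas and at 0.710% to 1.77% in cKO pineal glands. At ZT20, the retina pools labelled cKO stood at 4.37%, 50.3% and 45.9%, and the pineal pools labelled cKO at 0.849%, 59.3% and 25.6%. Pools 2 and 3 labelled cKO at ZT20 therefore kept Neurod1 signal in both tissues. What the differences of members called at ZT20 became without these pools is given beside the results. Leaving them out leaves 1 cKO pool at ZT20, which is then assumed to vary like the other groups. The tissue labels matched their defining markers. The summed signal of 5 photoreceptor genes was 38817 to 46751 in retinas and 11831 to 18884 in pineal glands. That of 4 pinealocyte genes was 11151 to 13739 in retinas and 27222 to 35397 in pineal glands. Array medians as deposited ranged from 107.8 to 183.1 in retinas and from 107.1 to 158.8 in pineal glands. They were higher in cKO than in control arrays in retina (means 147.6 at ZT20 and 153.0 at ZT6 in cKO, 125.5 and 119.4 in control). They were lower in cKO than in control arrays in pineal gland (114.7 and 121.5 in cKO, 144.7 and 145.2 in control). The arrays were quantile-normalised for this reason.

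Promoter windows of 3 members are shown because Ccl12 and Cxcl10 had the largest rises among tested members in cKO retina and because Cxcl1, which also rose, holds overlapping NF-kappaB letters. Each window runs from 250 bases before to 50 bases after the annotated start, in the RefSeq annotation of GRCm38.p6, and is written 5′ to 3′ on the gene's strand. Capitals mark matches on either strand to a kappaB motif (GGGA and TTCC with any 2 bases between them) or to an interferon-stimulated response element (ISRE, GAAA and GAAA with any 2 bases between them).
Cxcl10, chr5:92348840-92349139, minus strand: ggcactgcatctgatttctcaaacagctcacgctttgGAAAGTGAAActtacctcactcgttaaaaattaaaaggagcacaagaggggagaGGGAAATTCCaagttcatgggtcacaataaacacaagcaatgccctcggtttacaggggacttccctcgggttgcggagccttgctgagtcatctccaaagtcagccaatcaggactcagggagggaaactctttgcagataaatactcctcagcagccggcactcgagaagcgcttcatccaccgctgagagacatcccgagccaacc
Cxcl1, chr5:90890995-90891294, plus strand: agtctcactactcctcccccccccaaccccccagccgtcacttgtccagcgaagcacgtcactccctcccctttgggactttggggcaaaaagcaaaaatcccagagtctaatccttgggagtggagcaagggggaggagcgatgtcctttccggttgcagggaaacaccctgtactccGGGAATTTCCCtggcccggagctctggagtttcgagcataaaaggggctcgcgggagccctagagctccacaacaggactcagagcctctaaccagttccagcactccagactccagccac
Ccl12, chr11:82101595-82101894, plus strand: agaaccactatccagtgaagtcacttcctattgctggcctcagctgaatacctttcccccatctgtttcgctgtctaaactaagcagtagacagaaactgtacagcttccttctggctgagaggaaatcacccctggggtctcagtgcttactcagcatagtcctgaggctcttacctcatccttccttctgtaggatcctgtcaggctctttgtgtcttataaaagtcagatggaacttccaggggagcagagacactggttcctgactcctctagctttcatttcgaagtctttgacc
The Cxcl10 window held 1 match to each motif, the Cxcl1 window 2 overlapping kappaB matches, and the Ccl12 window no match to either. Windows were available for 33 of the 46 members (37 windows). The kappaB letters were in 6 of these 37 windows (16.2%: Ccl1, Ccr3, Cxcl1, Cxcl10, Cxcl2 and Cxcl3), against 1.47% of all 32851 windows of the same length. The ISRE letters were in 2 of the 37 (5.41%: Cxcl10 and Cxcl14), against 3.44% of all windows. The E-box CACGTG, which the circadian factors CLOCK and BMAL1 bind, was in 1 of the 37 (Cxcl3), against 7.15% of all windows, and the cAMP response element TGACGTCA was in 0 of the 37, against 1.79%. A match describes these letters only.

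Most members were dim. Of the 46, 27 were above the array median on none of the 24 arrays, and 16 stayed below a signal of 50 on every array. A gene entered a test when it was above the array median on at least 3 arrays of the fit, which 12 members did in retina (5 CC ligands, 5 CXC ligands, Ccr9 and Cxcr4), 14 in pineal gland (7 CC ligands, 5 CXC ligands, Ccr2 and Cxcr4) and 15 in the fit over both tissues. In retina Ccl12, Cxcl10 and Ccl6 passed the filter through their cKO arrays alone, so counts over the members that passed are descriptions, and a fit of all 18193 genes without the filter is given beside them.

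**Figure D1:**
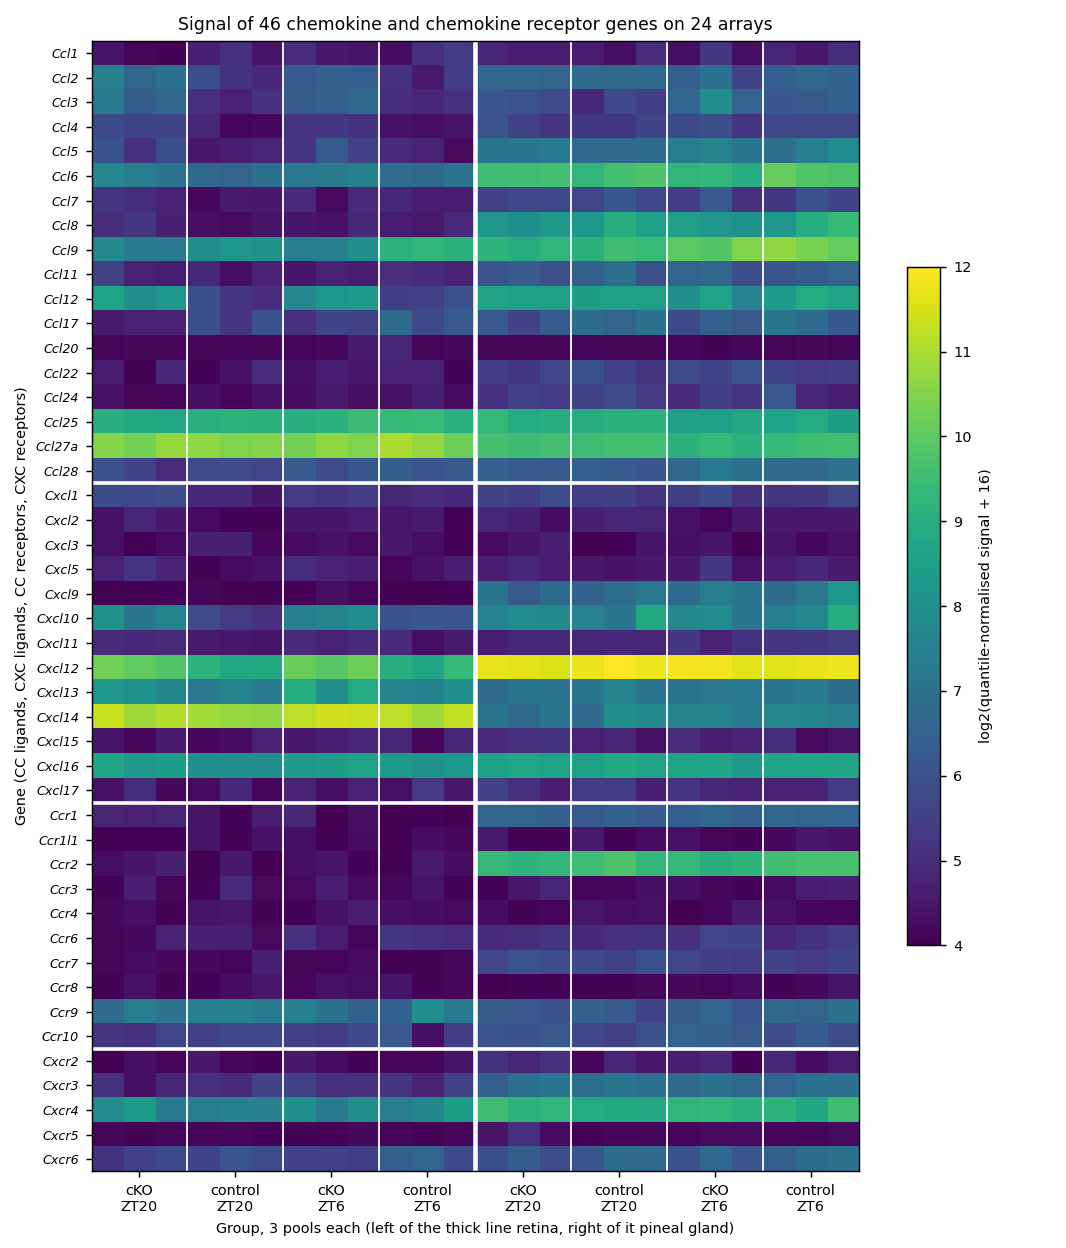
Signal of the 46 members (rows, grouped as CC ligands, CXC ligands, CC receptors and CXC receptors) on each of the 24 arrays (columns, 3 pools per group), coloured by log2(quantile-normalised signal + 16). Most rows are dark throughout, Ccr2, Ccl8 and Cxcl9 are brighter in the pineal columns than in the retina columns, and Ccl12 and Cxcl10 are brighter in cKO than in control retinas; colours of different rows come from different probe sets and are not levels to set against each other.

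Loss of NeuroD1 was accompanied in the retina by higher signals of inflammatory CC and CXC ligands, and no receptor passed the test in the higher direction. Averaged over ZT20 and ZT6, Ccl12 rose by a log2 difference of 2.63 ± 0.19, Cxcl10 by 1.86 ± 0.18, Cxcl12 by 1.08 ± 0.12, Cxcl13 by 0.78 ± 0.17, Ccl6 by 0.55 ± 0.14 and Cxcl16 by 0.38 ± 0.10, and Ccl9 fell by 1.09 ± 0.12. Of the 12 members tested, 6 were higher (13.5% of all genes tested) and 1 was lower (11.8%). In the fit of all genes, 12 of the 46 were higher (9.52% of all genes) and 3 were lower (7.79%), and the median log2 difference of the 46 was 0.01 (0.00 over all genes). On signals as deposited, 7 tested members were higher and 1 lower, against 27.7% higher and 2.29% lower over all genes tested.

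Ccl12, a ligand of the receptor Ccr2 on monocytes, had the largest rise. At ZT20 its signal was 386.3, 239.2 and 276.8 in the retina pools labelled cKO, against 44.0, 21.6 and 16.4 in control retinas. At ZT6 it was 190.6, 278.8 and 301.1 in cKO retinas, against 29.4, 32.1 and 47.7 in control retinas. The groups did not overlap at either time, and the differences were 2.89 ± 0.27 (7.44-fold, adjusted p = 2.1e-05, limma) at ZT20 and 2.37 ± 0.27 (5.18-fold, adjusted p = 9.3e-05) at ZT6. These tests are of a gene that passed the filter through its cKO arrays alone. Both calls were kept in the fit of all genes, which has no filter. Without the pools that kept Neurod1 the ZT20 difference was 3.26 (adjusted p = 0.00037).

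Ccl2, the main monocyte attractant and also a Ccr2 ligand, was below the filter in retina. Its signal at ZT20 was 162.2, 81.0 and 110.9 in the retina pools labelled cKO, against 42.8, 19.9 and 13.4 in controls, and at ZT6 it was 60.0, 69.4 and 67.1 in cKO against 19.5, 7.8 and 25.9 in controls. In the fit of all genes Ccl2 rose by 1.72 ± 0.29 at ZT20 (adjusted p = 0.0028) and by 1.31 ± 0.29 at ZT6 (adjusted p = 0.012, limma). The ZT6 call was lost when control pool 2 was left out (adjusted p = 0.058), and the ZT20 difference was 2.17 without the pools that kept Neurod1. Ccl12 and Ccl2 lie in the same cluster on chromosome 11 of GRCm38.p6, in the order Ccl2, Ccl7, Ccl11, Ccl12, Ccl8 and Ccl1. Ccl7, Ccl11, Ccl8 and Ccl1 did not pass in cKO retina. Ccl8 was at 16.6, 22.8 and 10.3 in the retina pools labelled cKO at ZT20, against 4.0, 3.0 and 6.0 in controls (difference 0.67 ± 0.19, adjusted p = 0.056 over all genes), and Ccl11 was at 1.01-fold of control in the mean over both times.

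The macrophage inflammatory proteins Ccl3 and Ccl4, which microglia release on activation, were also below the filter and rose together. Ccl3 was at 141.8, 66.4 and 87.4 in the retina pools labelled cKO at ZT20, against 17.6, 10.8 and 19.2 in controls. At ZT6 it was at 63.8, 72.2 and 89.8 in cKO, against 17.4, 13.1 and 18.9 in controls. Every cKO pool was above every control pool, with differences of 1.80 ± 0.23 (adjusted p = 0.00039) at ZT20 and 1.49 ± 0.23 (adjusted p = 0.0012, limma, all genes) at ZT6. Ccl4 was at 40.0, 34.0 and 34.4 in the retina pools labelled cKO at ZT20, against 12.8, 1.6 and 2.1 in controls. By day, at ZT6, it was at 20.7, 23.0 and 20.2 in cKO, against 4.9, 3.5 and 5.7 in controls. These groups were separate too, with differences of 1.31 ± 0.18 (adjusted p = 8e-04) and 0.85 ± 0.18 (adjusted p = 0.011). Ccl5, which T cells and macrophages make, was at 49.0, 18.7 and 44.0 in the retina pools labelled cKO at ZT20, against 7.6, 9.7 and 12.5 in controls. The ZT6 values were 21.5, 60.8 and 31.4 in cKO, against 15.6, 11.2 and 2.5 in controls. Its cKO pools varied more, and it passed at ZT6 (1.03 ± 0.30, adjusted p = 0.042) but not at ZT20 (0.99 ± 0.30, adjusted p = 0.065). The ZT6 call on Ccl5 was lost without control pool 2, control pool 3, cKO pool 2 or cKO pool 3 (largest adjusted p = 0.16). Its mean over both times rose by 1.01 (adjusted p = 0.0045, limma, all genes). That mean kept its call with each single pool left out (largest adjusted p = 0.015). At ZT20 Ccl5 differed by 1.33 without the pools that kept Neurod1 (adjusted p = 0.074, all genes).

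**Figure D2:**
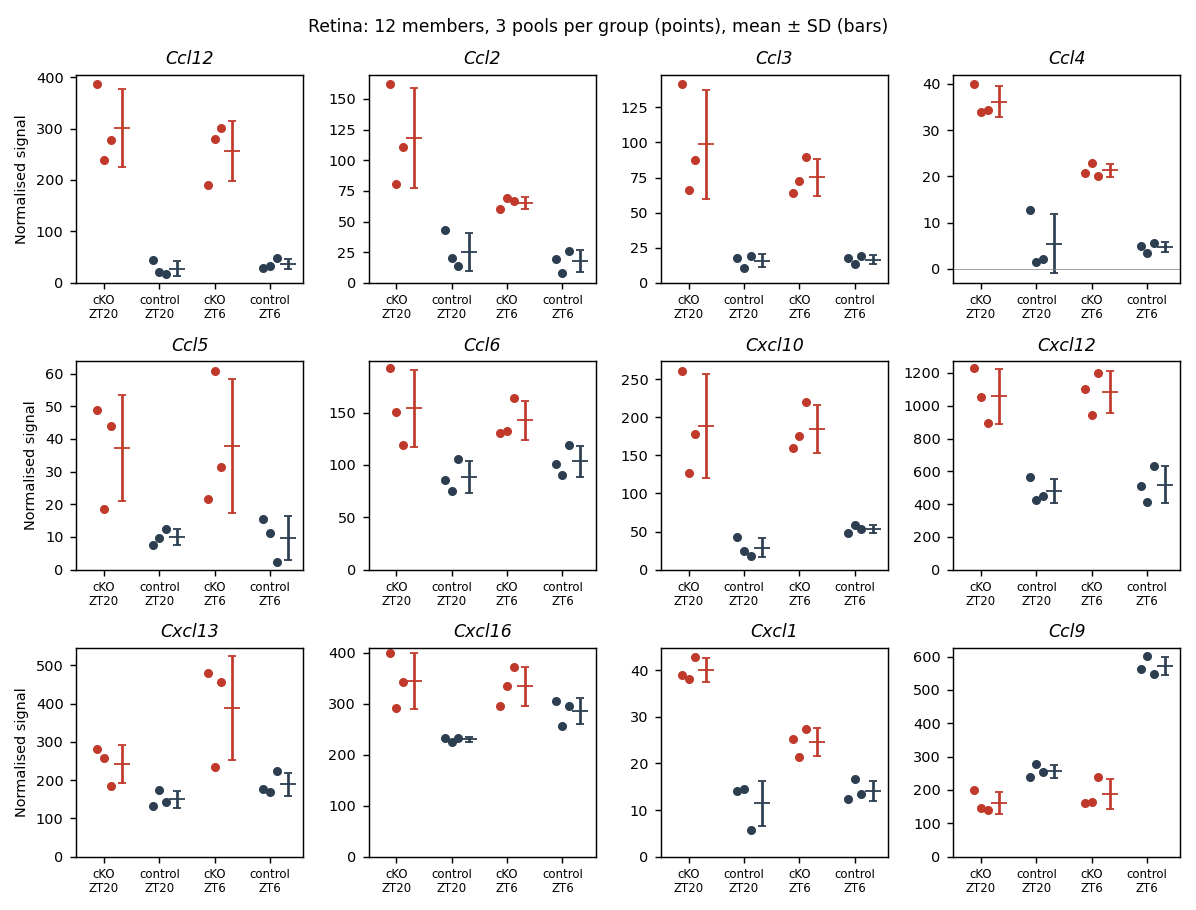
Quantile-normalised signal (vertical axes) of 12 members in the 12 retina pools. Points are pools (red for cKO, dark for control), and bars show the mean ± SD of 3 pools. For Ccl12, Ccl2, Ccl3, Ccl4, Cxcl10 and Cxcl12 every cKO point lies above every control point at both times, and for Ccl9 every cKO point lies below; the lower SD bar of Ccl4 in controls at ZT20 passes 0 because pool 1 (12.8) stands apart from 1.6 and 2.1.

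Among the CXC ligands, Cxcl10, an interferon-induced ligand of Cxcr3 on T and NK cells, rose most. At ZT20 it was at 261.0, 126.5 and 178.0 in the retina pools labelled cKO, against 42.3, 25.0 and 18.4 in controls (2.18 ± 0.26, adjusted p = 0.00015). By day, at ZT6, it was at 160.0, 174.8 and 220.2 in cKO, against 48.1, 58.4 and 53.2 in controls (1.53 ± 0.26, adjusted p = 0.0017, limma). The pools did not overlap. Cxcl10 also passed the filter through its cKO arrays alone, and both calls were kept in the fit of all genes. Without the pools that kept Neurod1 the ZT20 difference was 2.67. Cxcl9, the other Cxcr3 ligand measured beside Cxcl11, stayed at or below 4.0 on all 12 retina arrays on the probe set used and lay between 10.4 and 20.5 on its second set, and Cxcl11 had a mean difference of 1.28-fold that did not pass (adjusted p = 0.061, all genes).

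Cxcl1 and Cxcl5, neutrophil attractants that act through Cxcr2, were dim and below the filter. Cxcl1 was at 39.1, 38.2 and 42.9 in the retina pools labelled cKO at ZT20, against 14.0, 14.5 and 5.8 in controls (1.05 ± 0.16, adjusted p = 0.0018, all genes). At ZT6 it was at 25.3, 21.4 and 27.3 in cKO, against 12.4, 16.6 and 13.4 in controls (0.43 ± 0.16, adjusted p = 0.12). The pools were separate at both times, and the ZT20 difference passed the test. Cxcl5 was at 10.8, 21.7 and 12.1 in the retina pools labelled cKO at ZT20, against 0.4, 2.8 and 5.2 in controls (0.70 ± 0.19, adjusted p = 0.044), and its call was lost when any of these 6 pools was left out (largest adjusted p = 0.16) and without the pools that kept Neurod1 (0.52, adjusted p = 0.34).

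Cxcl12, the ligand of Cxcr4 that attracts precursor cells and is made by stromal and vascular cells, rose on the probe set used. It was at 1229.3, 1052.4 and 894.9 in the retina pools labelled cKO at ZT20, against 564.4, 423.4 and 449.3 in controls (1.12 ± 0.17, adjusted p = 0.00099). By day, at ZT6, it was at 1104.0, 945.9 and 1196.8 in cKO, against 510.5, 413.1 and 634.2 in controls (1.05 ± 0.17, adjusted p = 0.0012). The second Cxcl12 probe set did not show the rise: it was at 226.5, 212.5 and 171.3 in the retina pools labelled cKO at ZT20, against 308.2, 314.3 and 372.9 in controls, a difference of -0.67, and its ZT6 difference was 0.00. The probe sets thus disagreed in direction at ZT20, so the rise is that of the used probe set. Without the pools that kept Neurod1 the ZT20 difference of that set was 1.34 (adjusted p = 0.0042).

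Cxcl13, a B cell attractant that binds Cxcr5, was at 281.0, 258.4 and 184.8 in the retina pools labelled cKO at ZT20, against 132.6, 174.1 and 141.7 in controls (0.63 ± 0.25, adjusted p = 0.14). The ZT6 values were 478.8, 232.9 and 455.2 in cKO, against 175.6, 168.1 and 224.1 in controls (0.93 ± 0.25, adjusted p = 0.021). The pools were separate at both times and the ZT6 difference passed, but the call was lost without control pool 1, control pool 2, cKO pool 1 or cKO pool 3 (largest adjusted p = 0.093). The second Cxcl13 probe set differed by 0.25 at ZT6 and -0.02 at ZT20, and without the pools that kept Neurod1 the used set differed by 0.85 at ZT20 (adjusted p = 0.17). Cxcl16, a membrane-bound ligand of Cxcr6, was at 399.6, 291.0 and 341.8 in the retina pools labelled cKO at ZT20, against 232.6, 224.3 and 233.2 in controls (0.54 ± 0.14, adjusted p = 0.028), and its ZT6 difference of 0.21 ± 0.14 did not pass (adjusted p = 0.34). The ZT20 call on Cxcl16 was lost without control pool 1, 2 or 3 or cKO pool 1 or 3 (largest adjusted p = 0.16). It was lost with signals as deposited as well (adjusted p = 0.075). The second Cxcl16 probe set differed by 0.18 at ZT20, where its pools overlapped, and by 0.42 at ZT6. Cxcl14, a ligand made by neurons and epithelia, was at 2566.0, 1836.3 and 2158.2 in the retina pools labelled cKO at ZT20, against 1895.2, 1681.9 and 1617.0 in controls, and its mean difference of 0.27 ± 0.10 did not pass (adjusted p = 0.051), while it did on deposited signals (0.46, adjusted p = 0.018) and without the pools that kept Neurod1 (0.40, adjusted p = 0.018). Its second probe set differed by 0.73 at ZT20 and 0.61 at ZT6.

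Ccl6 and Ccl9 are mouse ligands of Ccr1 and lie side by side on chromosome 11, in the order Ccl5, Ccl9, Ccl6, Ccl3 and Ccl4, yet they moved in opposite directions. Ccl6 was at 192.9, 150.2 and 119.0 in the retina pools labelled cKO at ZT20, against 86.0, 74.7 and 105.3 in controls (0.69 ± 0.20, adjusted p = 0.045). At ZT6 it was at 130.6, 132.7 and 164.3 in cKO, against 100.8, 90.4 and 119.4 in controls (0.41 ± 0.20, adjusted p = 0.19). Its pools were separate at both times. The ZT20 call was lost without control pool 1, 2 or 3 (largest adjusted p = 0.17) and in the fit of all genes (adjusted p = 0.052). Without the pools that kept Neurod1, Ccl6 no longer passed the filter, and its ZT20 difference was 1.00 in the fit of all genes (adjusted p = 0.049). Its second probe set differed by 1.29 at ZT20 and 0.34 at ZT6. Ccl9 was at 199.8, 146.2 and 139.7 in the retina pools labelled cKO at ZT20, against 238.6, 277.7 and 252.4 in controls (-0.63 ± 0.17, adjusted p = 0.034). By day, at ZT6, it was at 160.2, 162.2 and 239.1 in cKO, against 562.1, 601.1 and 549.0 in controls (-1.55 ± 0.17, adjusted p = 7.7e-05). It was thus lower in cKO at both times, to 0.34-fold of control at ZT6. The ZT6 call held under each alternative run, while the ZT20 call was lost without control pool 1, 2 or 3 or cKO pool 2 or 3 (largest adjusted p = 0.13), with signals as deposited (-0.41, adjusted p = 0.35) and without the pools that kept Neurod1 (-0.33, adjusted p = 0.45). It was lost as well in the fit of all genes (adjusted p = 0.05 after rounding) and with the replicate block (adjusted p = 0.064). The second Ccl9 probe set differed by -0.48 at ZT6 and -0.09 at ZT20, and its cKO and control pools overlapped at both times.

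**Figure D3:**
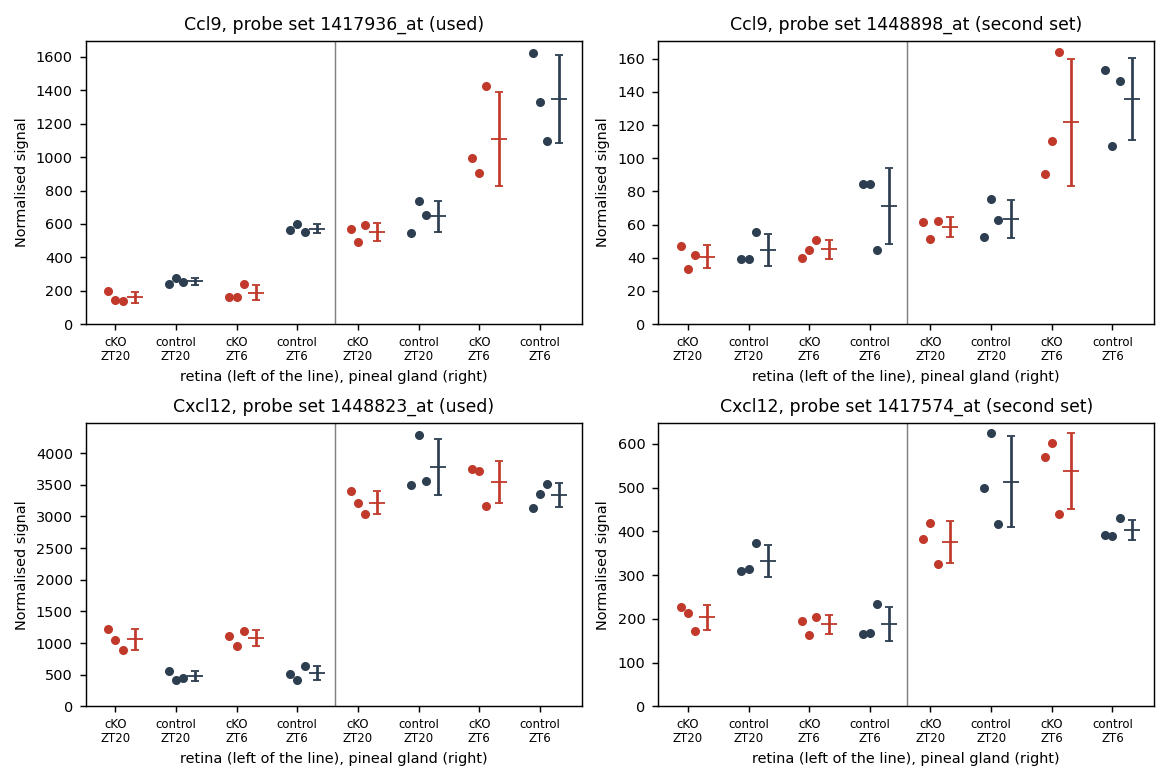
Quantile-normalised signal (vertical axes) of both brighter probe sets of Ccl9 and of Cxcl12 in the 24 pools, retina left and pineal gland right of the line. Points are pools (red for cKO, dark for control), with the mean ± SD of 3 pools. The Ccl9 sets share a drop at ZT20 in pineal gland. In control retina the used Ccl9 set drops too, while the night and day pools of the second set overlap. The Cxcl12 sets differ in retina, where the used set is higher in cKO and the second set is not.

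Ccl17, a ligand of Ccr4, was the only other ligand that passed in the lower direction, below the filter and dim. It was at 7.8, 11.2 and 11.1 in the retina pools labelled cKO at ZT20, against 45.2, 20.9 and 49.4 in controls (-1.03 ± 0.27, adjusted p = 0.035, all genes). The ZT6 values were 18.8, 32.7 and 30.3 in cKO, against 90.2, 38.1 and 59.3 in controls (-0.82 ± 0.27, adjusted p = 0.067). The pools were separate at both times, and the mean over both times fell by 0.92 ± 0.19 (adjusted p = 0.0041). The ZT20 call was lost when control pool 1 or 3 or any cKO pool was left out (largest adjusted p = 0.14), with signals as deposited, and without the pools that kept Neurod1 (-1.15, adjusted p = 0.14).

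By count, 4 tested members were higher at ZT6 (9.47% of all genes tested) and 1 was lower (7.12%), and 5 were higher at ZT20 (5.66%) and 1 was lower (4.68%). Over all 46 members in the fit of all genes, 8 were higher at ZT6 (6.12% of all genes) and 1 lower (4.39%), and 9 were higher at ZT20 (4.04%) and 1 lower (Ccl17, 2.89%). Counting pools alone, all 3 cKO pools lay above all 3 controls for 11 of the 46 at ZT6 (14.3% of all genes) and for 17 at ZT20 (11.9%), and below them for 3 (13.1%) and 4 (12.1%). On deposited signals, 5 tested members were higher and 1 lower at ZT6 (22.8% and 1.12% of genes tested), and 5 were higher and 0 lower at ZT20 (5.48% and 1.02%). Without the pools that kept Neurod1, the ZT20 differences were 3.26 for Ccl12, 2.67 for Cxcl10, 1.34 for Cxcl12, 0.76 for Cxcl16 and -0.33 for Ccl9. In the fit of all genes they were 2.31 for Ccl3, 2.17 for Ccl2, 1.42 for Ccl4 and 1.02 for Cxcl1. Those of Cxcl5 and Ccl17 were 0.52 and -1.15. The cKO difference itself was not shown to differ between ZT20 and ZT6 for any of the 12 members tested by limma, of which 1 (Ccl9, 0.92 ± 0.24, adjusted p = 0.48) had an unadjusted p under 0.05; 0.00% of all genes passed.

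No chemokine receptor passed the test in the higher direction in cKO retina. Cxcr4, the receptor of Cxcl12, was at 217.6, 310.9 and 145.0 in the retina pools labelled cKO at ZT20, against 150.3, 166.5 and 161.2 in controls, and the groups overlapped (0.40 ± 0.29, adjusted p = 0.46). Ccr9, the receptor of Ccl25, had a mean difference of -0.28 ± 0.23 (adjusted p = 0.41). Below the filter, Ccr2 lay between 0.3 and 10.3, Ccr7 between 0.5 and 10.3 and Cxcr2 between 0.3 and 7.5 over the 12 retina arrays, so the receptors of Ccl12, Ccl2 and Cxcl1 had signals at the bottom of the array's range in cKO and control alike. Ccr1, a receptor of Ccl3 and Ccl5, was also dim, at 12.6, 10.4 and 12.3 in the retina pools labelled cKO at ZT20 against 5.7, 0.9 and 8.5 in controls. Those pools were separate, but the difference did not pass (0.42 ± 0.20, adjusted p = 0.28, all genes). Cxcr3, the receptor of Cxcl10, was at 19.3, 4.2 and 12.9 in the retina pools labelled cKO at ZT20, against 17.6, 15.8 and 30.9 in controls, which overlapped (adjusted p = 0.40). Cxcr6, the receptor of Cxcl16, was the only receptor past the threshold, and it was lower: its mean difference was -0.55 ± 0.16 (adjusted p = 0.035, all genes), with 30.8, 31.1 and 28.8 in cKO at ZT6 against 70.2, 78.6 and 38.9 in controls. That call was lost with signals as deposited and without any of 9 of the 12 pools (largest adjusted p = 0.097). Removing control pool 3 at ZT6, control pool 1 at ZT20 or cKO pool 3 at ZT20 kept it. The second Cxcr6 probe set, which was not tested, differed by -0.91 at ZT6 and -0.90 at ZT20.

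Markers of microglia and macrophages moved with these ligands in retina. Their summed signal over 14 genes was 7644 to 10944 in the pools labelled cKO at ZT20 and 7281 to 9905 in cKO at ZT6, against 2328 to 3102 and 2283 to 3281 in controls. In the fit of all genes 12 of the 14 rose at ZT20 (4.04% of all genes were higher) and 11 at ZT6 (6.12%). Of the 9 that passed the filter, 3 did so through cKO arrays alone. The risers were led in the mean over both times by C1qc (2.15 ± 0.16), C1qb (1.92 ± 0.16) and C1qa (1.91 ± 0.15), which encode complement C1q and are strongly expressed by microglia. In bulk tissue more cells of a type and more RNA per cell cannot be told apart. Markers of Mueller glia and gliosis rose as well, 7 of 8 tested (13.5% of all genes tested were higher in the mean over both times). They were led by Lcn2 (3.42 ± 0.22), Serpina3n (3.36 ± 0.30) and Edn2 (2.97 ± 0.22). Their summed signal was 37797 to 43263 at ZT20 and 37178 to 39513 at ZT6 in cKO, against 25338 to 27392 and 24674 to 28818 in controls. This list joins genes of the cell type with genes of gliosis, and which cells made them, Edn2 included, was not tested. The part of microglia, macrophages and Mueller glia in the ligands' rise was not tested. Neutrophil and marrow markers had a summed signal over 9 genes of 109.7 to 181.6 in cKO and 93.2 to 197.4 in control retinas. T and NK cell markers over 7 genes summed to 78.9 to 164.7 in cKO and 67.9 to 124.2 in controls, and B cell markers over 5 genes to 48.8 to 78.1 in cKO and 37.0 to 98.8 in controls. The defining neutrophil genes Ngp and Mpo stayed below 10 in every pool of all 4 retina groups. The NK gene Nkg7 did so in cKO retinas at ZT6 and in controls at both times. The T cell genes Cd3e and Cd3g did so in controls at both times but in neither cKO group. Cd4 did so in controls at ZT6 alone, and Cd3d in cKO retinas at ZT6 alone. In cKO retinas at ZT20, 0 of the 7 T and NK cell markers stayed below 10 in every pool. In the fit of all genes 2 of 7 T and NK cell markers and 1 of 9 neutrophil markers were higher in cKO in the mean over both times. Of all genes, 9.52% were higher in that fit.

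Genes that act around the chemokines were read from lists chosen with these data's earlier results known. Of the inducers (cytokines, their receptors and NF-kappaB or interferon factors), 9 of 16 tested rose in cKO retina in the mean over both times and 1 fell. The risers were led by the TNF receptor Tnfrsf1a (1.88 ± 0.20), the endotoxin receptor Tlr4 (1.71 ± 0.24) and the cytokine Lif (1.70 ± 0.18), and the gene that fell was Tnfaip3, which restrains NF-kappaB (-0.47 ± 0.07). Of genes for signalling downstream of chemokine receptors, 5 of 14 tested rose and 0 fell, led by Stat3 (1.32 ± 0.10), Prex1 (0.45 ± 0.12) and Gnai2 (0.41 ± 0.09). Of a list of other chemokine family genes, related genes and atypical receptors, 2 of 6 tested rose (Cmtm3, 0.90 ± 0.20, and Cmtm6, 0.67 ± 0.08), and 0 fell. Neither riser encodes a chemokine or a chemokine receptor. The other genes of that list that were tested, Cx3cl1, Ackr1, Ackr3 and Ackr4, did not pass. The shares of these lists stand beside 13.5% higher and 11.8% lower over all genes tested. Tlr4, Lif and Cmtm3 passed the filter through their cKO arrays alone, so the counts over tested genes of these lists are descriptions.

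In the pineal gland 1 member passed the test between cKO and control at ZT6 and 0 did at ZT20, where 2 of the 3 pools labelled cKO kept Neurod1 at 59.3% and 25.6% of the control mean. At ZT6, Ccl6 was at 589.3, 612.6 and 485.3 in cKO, against 1104.3, 893.0 and 845.1 in controls, the only call among 14 members tested (-0.73 ± 0.14, adjusted p = 0.023; 1.22% of all genes tested were lower and 0.626% higher). The pools did not overlap, and the second Ccl6 probe set differed by -0.64. The call was lost without control pool 1, cKO pool 1 or cKO pool 3 (largest adjusted p = 0.13), and it was kept with the replicate block (adjusted p = 0.023). Ccr2, the monocyte receptor, was at 643.8, 517.8 and 568.9 in cKO at ZT6, against 727.9, 792.0 and 797.3 in controls, also without overlap, but did not pass (-0.42 ± 0.12, adjusted p = 0.085). At ZT20, 0 of 14 members passed with limma (4 at an unadjusted p under 0.05) and 0.00% of all genes did, so this count says nothing particular to the members. At ZT20 and in the mean over both times, 0 of 14 passed as well without the pools that kept Neurod1. The largest separate difference at ZT20 among the members tested was that of Cxcr4, at 723.7, 559.0 and 585.8 in the pineal pools labelled cKO against 465.0, 443.9 and 441.5 in controls (0.45 ± 0.16, adjusted p = 0.42). The next was that of Ccl5, at 121.5, 123.9 and 136.7 in the pineal pools labelled cKO against 89.7, 92.8 and 98.1 in controls (0.39 ± 0.21, adjusted p = 0.69). In the mean over both times 0 of 14 passed with limma (4 at an unadjusted p under 0.05; 0.467% of genes tested were higher and 1.16% lower). With signals as deposited 3 of 14 were lower in that mean (Ccl8, Ccl6 and Ccr2; 2.66% lower and 0.267% higher over all genes tested), and with median centring 2 were higher and 1 lower, so this count and its direction depend on the scaling. The cKO difference between ZT20 and ZT6 passed for 0 of 14 (4 at an unadjusted p under 0.05; 0.00% of genes). Several leukocyte markers moved in the direction of Ccl6 at ZT6: 2 of 12 tested microglia and macrophage markers fell (Tyrobp, -0.64 ± 0.11, and Lyz2, -0.49 ± 0.09), as did 4 of 5 mast cell markers, led by Cma1 (-0.94 ± 0.22). So did 2 of 6 neutrophil markers (S100a8, -2.05 ± 0.48, and S100a9, -1.66 ± 0.37) and 1 of 2 T and NK cell markers (Gzma, -0.86 ± 0.19), while 1 of 4 B cell markers rose (Igll1, 1.97 ± 0.34). The summed microglia and macrophage signal was 13491 to 17080 in cKO and 19355 to 19494 in control pineal glands at ZT6, and the part of these cells in the Ccl6 difference was not tested.

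The cKO difference was tested for a difference between the tissues, retina minus pineal gland, with the pools of both tissues treated as independent. It was larger in retina for 8 of 15 members tested (8.68% of all genes tested) and smaller for 1 (7.23%). With signals as deposited 10 members were larger in retina and 0 smaller, and 20.2% of genes were higher and 0.696% lower, so the balance over all genes rests on the scaling. The test passed for Ccl12 (2.87 ± 0.25), Cxcl10 (2.14 ± 0.37), Cxcl12 (1.15 ± 0.14), Ccl6 (0.93 ± 0.17), Cxcl13 (0.87 ± 0.22), Ccl5 (0.86 ± 0.27), Ccl8 (0.77 ± 0.25), Cxcl16 (0.45 ± 0.13) and, in the other direction, Ccl9 (-0.84 ± 0.18). The second probe sets of Cxcl12 and Cxcl13 did not share this direction (-0.31 and -0.09). Without the pools that kept Neurod1, the differences on the used sets were 3.01 (Ccl12), 2.48 (Cxcl10), 1.22 (Cxcl12), 1.11 (Cxcl13), 1.10 (Ccl6) and 1.06 (Ccl5). Those of Ccl8, Cxcl16 and Ccl9 were 0.76, 0.61 and -0.71. In the fit of all genes, Ccl2 (1.65 ± 0.29), Ccl4 (0.98 ± 0.21), Ccl3 (0.97 ± 0.29) and Cxcl11 (0.51 ± 0.16) were added, giving 12 of 46 larger in retina (6.29% of all genes) and 1 smaller (5.08%). Ccl3 lost this call without any of 10 of the 24 pools (in pineal gland control pool 3 and cKO pools 1 and 3 at ZT6, and control pools 2 and 3 and cKO pool 3 at ZT20; in retina control pool 2 and cKO pool 3 at ZT6, and control pool 2 and cKO pool 1 at ZT20; largest adjusted p = 0.071). Cxcl11 lost it without any of 19, all but pineal cKO pools 1 and 3 at ZT6 and pool 3 at ZT20, and retina control pool 1 and cKO pool 2 at ZT6 (largest adjusted p = 0.087). Neither passed without the pools that kept Neurod1 (adjusted p = 0.05 after rounding for Ccl3 and 0.089 for Cxcl11). The pineal signal of Ccl3 ran the same way as in retina: it was at 56.0, 50.3 and 41.7 in the pineal pools labelled cKO at ZT20, against 14.2, 38.4 and 29.2 in controls. At ZT6 it was at 81.4, 226.9 and 76.7 in cKO, against 55.4, 61.3 and 73.3 in controls. Those pools were separate at both times, but neither difference passed (adjusted p = 0.74 and 0.27, all genes).

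**Figure D4:**
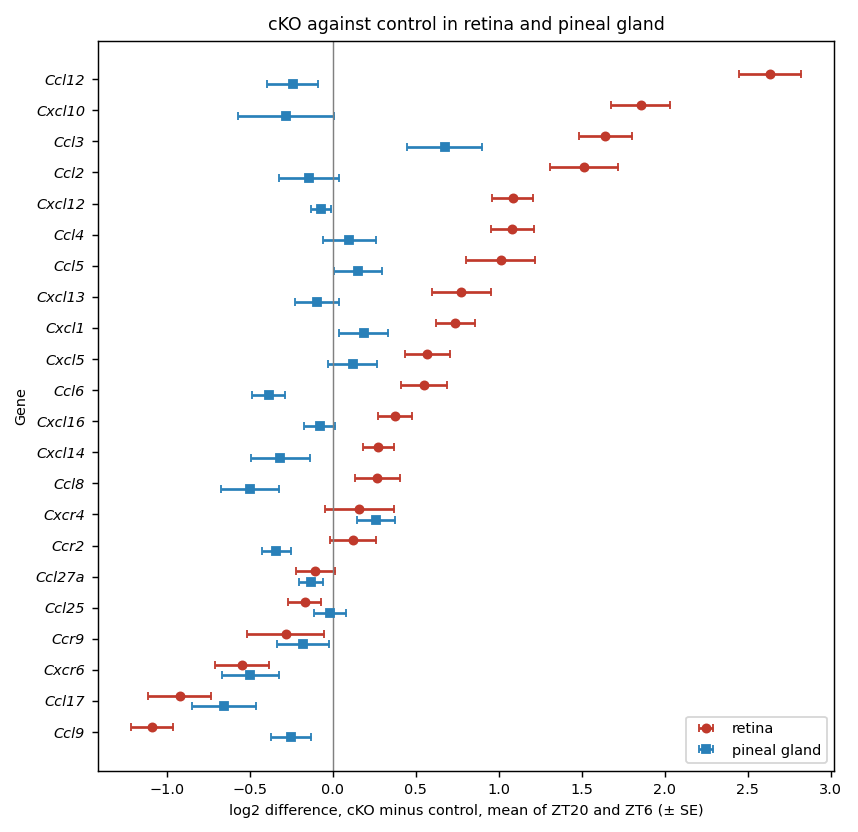
Log2 difference of cKO minus control, averaged over ZT20 and ZT6 (horizontal axis, bars ± SE of the fit of all genes), for 22 members in retina (red circles) and pineal gland (blue squares). Ccl12, Cxcl10, Ccl3 and Ccl2 lie furthest right in retina, Ccl9 and Ccl17 lie furthest left in retina, and the pineal points lie between -0.65 (Ccl17) and 0.67 (Ccl3).

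Between night and day, Ccl9 was the member that changed in most groups. In control pineal glands it was at 547.2, 734.5 and 652.4 at ZT20, against 1622.5, 1332.7 and 1096.5 at ZT6 (-1.04 ± 0.17, adjusted p = 0.00064). In cKO pineal glands it was at 571.1, 489.2 and 591.6 in the pools labelled cKO at ZT20, against 994.0, 905.1 and 1426.8 at ZT6 (-0.97 ± 0.17, adjusted p = 0.0013). In control retinas it was at 238.6, 277.7 and 252.4 at ZT20, against 562.1, 601.1 and 549.0 at ZT6 (-1.11 ± 0.17, adjusted p = 0.011). The night pools lay below the day pools in all 3 cases. In cKO retinas the night and day pools overlapped (-0.19 ± 0.17, adjusted p = 0.88). The retina control call was lost without control pool 1 or 2 at ZT6 or control pool 1 or 3 at ZT20 (largest adjusted p = 0.068), and with signals as deposited (-0.99, adjusted p = 0.091). The second Ccl9 probe set was lower at ZT20 too, with log2 differences of -0.93 in control pineal glands, -0.85 in cKO pineal glands and -0.50 in control retinas. Its night and day pools were separate in pineal glands. They overlapped in control retinas, at 39.0, 39.3 and 55.5 at ZT20 against 84.3, 84.3 and 44.7 at ZT6.

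Other members with a difference between night and day were in the pineal gland. Ccl5 fell at night in control pineal glands, at 89.7, 92.8 and 98.1 at ZT20 against 109.1, 154.9 and 220.0 at ZT6 (-0.65 ± 0.21, adjusted p = 0.035). Ccl25, known as a thymus-expressed ligand of Ccr9, rose at night in controls, at 490.2, 549.4 and 550.8 at ZT20 against 382.8, 463.9 and 343.4 at ZT6 (0.41 ± 0.13, adjusted p = 0.034). It also did so in cKO, at 620.9, 465.4 and 518.4 at ZT20 against 359.7, 361.3 and 434.4 at ZT6 (0.45 ± 0.13, adjusted p = 0.029). Ccl27a, a skin-associated ligand of Ccr10, rose at night in cKO pineal glands, at 783.5, 697.0 and 773.6 at ZT20 against 544.7, 647.9 and 533.9 at ZT6 (0.38 ± 0.10, adjusted p = 0.017). In the fit of all genes Ccl28, also a Ccr10 ligand, fell at night in cKO pineal glands (-0.63 ± 0.18, adjusted p = 0.037; 5.21% of all genes were higher and 5.95% lower). These small changes were the least stable: with signals as deposited Ccl5, Ccl25 and Ccl27a did not pass (adjusted p from 0.093 to 0.42). The Ccl5 call was lost without any of 5 of the 6 pools, all but control pool 1 at ZT6 (largest adjusted p = 0.16). Ccl25 lost its call in controls without pool 1 or 3 at ZT6 or pool 2 or 3 at ZT20, and in cKO without pool 1 or 2 at ZT6 or pool 1 or 3 at ZT20 (largest adjusted p = 0.13 for each). Ccl27a lost its call without cKO pool 1 or 3 at ZT6 or cKO pool 1 at ZT20 (largest adjusted p = 0.071), and without the pools that kept Neurod1 (adjusted p = 0.076). Ccl28 lost its call without any of 5 of the 6 pools, all but cKO pool 1 at ZT6 (largest adjusted p = 0.14), and without the pools that kept Neurod1. In counts, control pineal glands had 1 member higher (12.2% of genes tested) and 2 lower (13.5%) at ZT20. In cKO pineal glands 2 were higher (8.38%) and 1 was lower (9.73%). Without the pools that kept Neurod1, the cKO differences were 0.67 for Ccl25, 0.44 for Ccl27a and -0.91 for Ccl9. Control retinas had 1 lower (0.562%) and 0 higher (0.672%). In cKO retinas 0 of 12 members passed with limma (2 at an unadjusted p under 0.05; 0.136% of genes higher and 0.204% lower). There Ccl25 had the largest separate difference among the members tested (-0.31 ± 0.14, adjusted p = 0.58). With signals as deposited the split over all genes tested was 5.12% higher and 3.12% lower in control pineal glands and 2.82% higher and 8.34% lower in cKO pineal glands, and in control retinas 0.0681% were higher and 0.0340% lower.

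In controls, 28 of the 46 members were lower in retina than in pineal gland. That count is from the fit of all genes, where 36.3% of all genes were lower and 31.4% higher; 4 members were higher, and the median log2 difference of the 46 was -0.58 against -0.02 for all genes. Of the 15 members that passed the filter over both tissues, 10 were lower (42.4% of all genes tested) and 4 were higher (37.3%). Ccr2, Ccl8 and Ccl5 passed that filter through pineal arrays alone and Ccr9 through retina arrays alone, so the second count is a description. With signals as deposited 3 of the 15 were higher and 10 lower (23.1% and 51.2% of all genes tested).

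Ccr2, the monocyte receptor, lay between 0.3 and 7.8 over the 6 control retina pools and between 608.8 and 860.0 over the 6 control pineal pools (-5.32 ± 0.13, adjusted p = 4.9e-20, limma). Its retina signal was at the bottom of the array's range, so the size of this difference depends on the 16 added before taking logs. Ccl8, a ligand of Ccr8 in mouse, lay between 3.0 and 15.5 in control retinas and between 281.9 and 647.0 in control pineal glands (-4.18 ± 0.17), and the Ccr2 ligand Ccl12 lay between 16.4 and 47.7 in control retinas and between 296.9 and 470.1 in control pineal glands (-3.01 ± 0.18). None of these ranges overlapped. Ccl6 (-2.94 ± 0.12), Cxcl12 (-2.80 ± 0.10), Ccl5 (-2.43 ± 0.19), Cxcl10 (-2.17 ± 0.26), Cxcr4 (-1.36 ± 0.18), Ccl9 (-1.24 ± 0.13) and Cxcl16 (-0.62 ± 0.09) were lower as well. Below the filter, the interferon-induced Cxcl9 (-3.07), the Ccl3 receptor Ccr1 (-2.26), the receptor Cxcr3 of T and NK cells (-1.72), the eosinophil attractant Ccl11 (-1.60), Ccl2 (-1.45) and the lymph node homing receptor Ccr7 (-1.45) passed in the fit of all genes. So did 12 others with log2 differences from -1.18 to -0.41: Ccl7, Ccl4, Ccl24, Ccl22, Ccl3, Ccl17, Cxcr6, Ccl28, Cxcl1, Cxcl11, Cxcl17 and Cxcl2. Of these, Cxcl17 lost its call without any of 7 of the 12 control pools (retina pools 1 and 3 at each time, pineal pools 1 and 2 at ZT20 and pineal pool 3 at ZT6; largest adjusted p = 0.13). The used Cxcl9 probe set lay between 0.4 and 1.3 in control retinas and between 74.3 and 278.3 in control pineal glands, and its second set differed by -0.67. Leukocyte markers ran the same way: the summed microglia and macrophage signal was 2283 to 3281 in control retinas and 17954 to 21141 in control pineal glands. The summed T and NK cell signal was 67.9 to 124.2 in control retinas and 626.2 to 1099 in control pineal glands. The summed mast cell signal was 150.3 to 209.5 in control retinas and 1999.6 to 3053 in control pineal glands. The part of these cells in the tissue differences was not tested.

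Cxcl14 ran the other way and was the member highest in retina relative to pineal gland. It lay between 1617.0 and 2432.1 in control retinas and between 96.4 and 234.7 in control pineal glands (3.38 ± 0.15, adjusted p = 2e-15), and its second probe set differed by 2.44. Ccl27a (1.08 ± 0.10), Ccr9 (0.86 ± 0.21) and Ccl25 (0.33 ± 0.10) were higher in retina too. Ccl25 lost its call with signals as deposited (0.08, adjusted p = 0.63). The Ccl27a probe set is of a type that Affymetrix marks as open to cross-hybridisation, and its level may include other transcripts. Cxcl13 did not pass (0.34 ± 0.16, adjusted p = 0.053), and for Cxcr6 the probe sets disagreed in direction (-0.60 for the used set and 0.42 for the second).

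**Figure D5:**
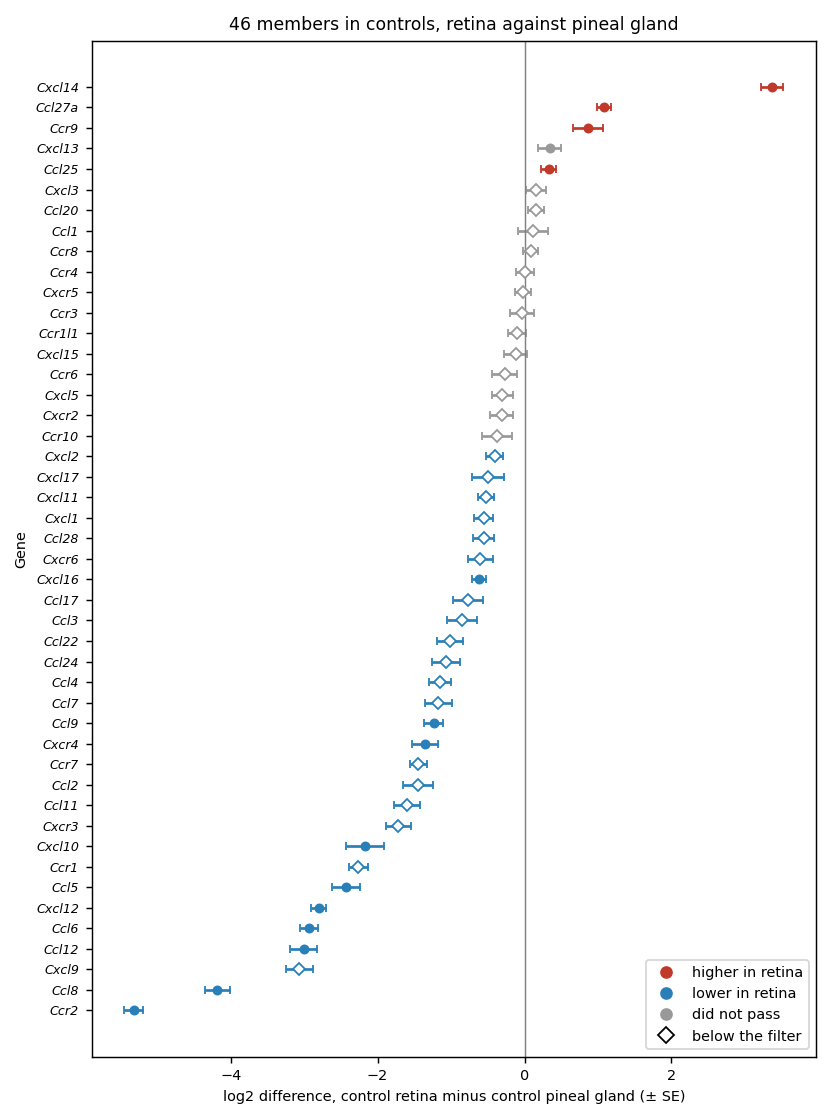
Log2 difference of control retina minus control pineal gland for the 46 members (horizontal axis, bars ± SE, fit of all genes). Red marks are higher in retina, blue lower, grey did not pass, and open diamonds are members below the filter. Ccr2 (-5.32) and Ccl8 (-4.18) lie furthest left and Cxcl14 (3.38) furthest right, and 28 marks are blue against 4 red.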

How the data were processed

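Total RNA of 24 pools was amplified and labelled (with NuGEN Ovation V2, then FL-Ovation biotin) and hybridised to Affymetrix Mouse 430 2.0 arrays, per the labels' protocols. The authors deposited 1 signal intensity per probe set and array (45101 probe sets), which GCOS produced, per the submitters' processing notes; the version and scaling target are not given in the sources used here, and no detection calls were used. Of the probe sets, 34945 carried 1 gene symbol, 932 several, 9160 none and 64 were controls; 18031 of the 18193 genes matched RefSeq by gene ID.

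Intensities were quantile-normalised, because array medians differed by genotype in opposite directions in the tissues, and limma (version 3.58.1, under R 4.3.3) modelled log2(signal + 16) by lmFit and trended eBayes, in 1 fit per tissue and 1 over both. A gene was tested where it exceeded the array median on at least 3 arrays, with Benjamini-Hochberg adjustment over all genes tested; members below this filter come from a fit of all genes. The procedure was tested on simulated data. No 2 arrays shared more than 0.494% of values. Nothing states that pools of a group came from separate litters or days, so p-values measure the spread between these pools, whose number limits the precision. Same-numbered pools correlated in their deviations at -0.233 to 0.363 in pineal gland (10 of 18 pairs over 0.1) and -0.515 to 0.401 in retina (5 of 18). In 1 of the 12 pairs of groups, pineal cKO and control at ZT6, all 3 pairs were over 0.1, and the block is given beside that result. Nothing else states a pairing. Correlations across tissues were not computed. Pools 2 and 3 labelled cKO at ZT20 kept Neurod1 signal in both tissues, and pool 1 did not. Whether same-numbered retina and pineal pools came from the same mice is not stated. The tests between tissues treat them as independent.

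The members and gene lists were chosen with earlier results of these data known. Every called member was named; where none was called, up to 2 tested members with the largest difference whose pools did not overlap; a fixed set of well-known members; and up to 3 called genes of a list with the largest change. Alternatives were signals as deposited, median centring, a pseudocount of 64, no filter, a filter on the mean, no variance trend, other probe sets in place of those ending in _x_at, a replicate block, and leaving out each pool or the ZT20 pools that kept Neurod1. Combining no filter with deposited signals or with left-out pools, and reading all members and lists without the ZT20 pools that kept Neurod1, was chosen after seeing the data.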

Additional observations from a re-analysis of the deposited data

Results flagged for a closer look

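For 9 members the cKO difference (mean of ZT20 and ZT6, log2) differed between retina and pineal gland by the test of the difference itself. Ccl12 differed by 2.87 ± 0.25 (2.63 in retina and -0.24 in pineal gland), Cxcl10 by 2.14 ± 0.37 (1.86 in retina and -0.28 in pineal gland), Cxcl12 by 1.15 ± 0.14 (1.08 in retina and -0.07 in pineal gland) and Ccl6 by 0.93 ± 0.17 (0.55 in retina and -0.39 in pineal gland). On second probe sets the difference was -0.31 for Cxcl12 and -0.09 for Cxcl13. On the sets used, Cxcl13 differed by 0.87 ± 0.22, Cxcl16 by 0.45 ± 0.13 and Ccl9 by -0.84 ± 0.18. The Cxcl16 difference was lost with median centring (0.36, adjusted p = 0.066, limma), and the Ccl9 difference was lost with signals as deposited (-0.43, adjusted p = 0.14).

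Ccl5 differed by 0.86 ± 0.27 and Ccl8 by 0.77 ± 0.25 (adjusted p = 0.035 each, limma). Both calls lay near the threshold and were lost on leaving out any 1 of many pools. The Ccl5 call was lost without any of 13 of the 24 pools: in pineal gland cKO pool 3 and control pools 2 and 3 at ZT6, and cKO pools 1 and 2 and control pools 2 and 3 at ZT20; in retina cKO pool 2 and control pool 3 at ZT6, and cKO pools 1 and 3 and control pools 1 and 2 at ZT20 (largest adjusted p = 0.074). The Ccl8 call was lost without any of 12: in pineal gland cKO pools 2 and 3 and control pools 2 and 3 at ZT6, and cKO pool 2 and control pool 2 at ZT20; in retina cKO pool 3 and control pools 1 and 2 at ZT6, and cKO pools 1 and 2 and control pool 2 at ZT20 (largest adjusted p = 0.074). With a pseudocount of 64 the Ccl5 difference was 0.34 (adjusted p = 0.16), and without the ZT20 pools that kept Neurod1 the Ccl8 difference was 0.76 (adjusted p = 0.12). With median centring it was 0.49 (adjusted p = 0.13). The cause was not tested.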

How the results depend on the processing

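Over 95 results, 1093 values with a single pool left out kept direction and side of the threshold in 956 cases, lost the call in 137 and reversed in 0. Of 515 values under other alternatives, 479 were kept, 35 lost the call and 1 reversed: Neurod1 in pineal glands labelled cKO, ZT20 against ZT6, was -0.52 without the ZT20 pools that kept its signal. In retina, no filter called 10 members between cKO and control at ZT20, 9 at ZT6 and 15 in the mean, since 46 were then tested, and a filter on the mean left 3, 3 and 4. No filter called 32 between control retina and control pineal gland. Deposited signals gave 3 for the pineal cKO mean, 1 for night against day in control and in cKO pineal glands, and 0 in control retinas. Median centring gave 2 in pineal gland at ZT6, 3 in the pineal mean (2 higher and 1 lower) and 1 for night against day in cKO pineal glands; the cause was not tested. Leaving out 1 pool gave 3 to 4 members in retina at ZT20, 4 to 5 at ZT6 and 6 to 8 in the mean, 0 to 2 in pineal gland at ZT6 and 0 to 1 in its mean, 1 to 3 for night against day in control and in cKO pineal glands, 0 to 1 in control retinas, 7 to 10 for the difference between tissues and 14 to 15 between control tissues. The replicate block gave 4 members in retina at ZT20, where Ccl6 and Ccl9 lost their calls, and changed no other count. Most members lay at the bottom of the signal range, which limits what can be seen of them.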
